A study of Mus musculus with 9 samples.

Results

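The Myc and Max network was followed as 8 genes, Myc, Mycn, Mycl, Max, Mxd1, Mxd4, Mxi1 and Mnt, out of 52550 gene identifiers with counts. They were taken by name, with symbols matched to the Ensembl identifiers, and all 8 had a row. RNA sequencing had been done on haematopoietic stem cells, the marrow cells that give rise to all blood lineages, in 9 libraries of 3 groups. These were old knockout (KO) mice of the strain B6N.129S6-Sphk2tm1Rlp/J, which the labels also call Sphk2 cKO, old wild-type (WT) mice and young WT mice, with 3 libraries each. Old mice were 22 to 24 months of age and young mice 2 months. Cells of all groups came from femur and tibia marrow after lysis of red cells, and 1000 cells per library were sorted that carried Sca1, c-Kit and CD150 and lacked lineage markers and CD48. The labels name no Cre driver, no drug treatment, and neither mouse nor litter, and they call the 3 libraries of a type technical replicates, so the error behind every p-value is the spread among libraries and may be technical. For the WT mice they give no strain.

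Myc, Mycn and Mycl encode transcription factors that act mainly as pairs with Max and then switch on genes for ribosome production, metabolism and growth. Max is the shared partner. Mxd1, Mxd4, Mxi1 and Mnt encode proteins that also pair with Max, occupy the same DNA sites and recruit Sin3 corepressors, so they act as antagonists of Myc. In haematopoietic stem cells of mice, Myc is known for its part in the balance between self-renewal and differentiation, and Myc and Mycn together for stem cell survival.

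Pairs of Myc and Max bind the E-box CACGTG, which is shown here where it occurs in the network's own promoters, since it is the letter code that activators and antagonists share. RefSeq windows (GRCm38.p6) of 300 bases, from 250 before to 50 after a gene start, were at hand for 7 of the 8 genes, in 9 windows, and the promoter of Myc was not searched. The sequence CACGTG, which reads the same on both strands, was present in 1 window each of Max, Mxd4 and Mnt, that is in 3 of 9 windows (33.3%), against 7.15% of all 32851 windows. Each is printed 5′ to 3′ on the gene's strand with the E-box in capitals.
Max: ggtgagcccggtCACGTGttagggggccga
Mxd4: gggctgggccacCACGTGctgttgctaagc
Mnt: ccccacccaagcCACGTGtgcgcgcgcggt
The Max stretch lies on the minus strand at chr12:76962234-76962263, with the motif starting 3 bases before the RefSeq gene start. That of Mxd4 is on the minus strand at chr5:34187912-34187941, 219 bases before the start, and that of Mnt on the plus strand at chr11:74830789-74830818, 123 bases before the start. A match is a description of letters and not a binding site shown here.

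Depth and background differed between the groups, and these values stand beside each result that follows. Counts in genes ran from 11284847 to 17544945 in old KO, from 3145167 to 5115003 in old WT and from 28088637 to 74021822 in young WT libraries. Counts outside annotated genes made up 45.0% to 61.9% of all counts in old KO, 80.8% to 87.7% in old WT and 6.51% to 12.5% in young WT. The background, read from 1134 olfactory receptor genes that blood cells do not use, was 5.55 to 7.29 reads per kb of exon in old KO, 5.41 to 10.4 in old WT and 1.09 to 1.43 in young WT libraries. A library counted as holding a gene above background when it had 20 or more counts of it and these were 5 or more times what that density predicts for the gene's exon length. Stem cell markers (Kit, Ly6a, Slamf1, Procr, Hlf, Mecom and Tek) summed to 569 to 1867 CPM (counts in a gene, scaled to the same total of counts in genes for every library) in old KO, 95.1 to 1842 CPM in old WT and 853 to 1148 CPM in young WT, and of the 7, 5 in old KO, 0 in old WT and 6 in young WT were above background in at least 2 libraries. Cd48, which the sort selects against, was above background in at least 2 libraries of no group. Of 8 erythroid markers 7 were so in young WT (116 to 448 CPM in sum) and none in old KO (3.76 to 6.82 CPM, with Hba-a2 at 0) or old WT (18.8 to 29.3 CPM). Of 6 megakaryocyte markers 3 were so in old KO (274 to 608 CPM), 0 in old WT (129 to 432 CPM) and 4 in young WT (384 to 846 CPM), and of 7 myeloid markers 3 in old KO (1128 to 1877 CPM), 2 in old WT (666 to 1163 CPM) and 5 in young WT (705 to 1019 CPM). Of 6 B cell and 5 T and NK cell markers, 1 each was so in young WT (7.26 to 82.6 and 76.3 to 163 CPM) and none in old KO (6.84 to 157 and 4.84 to 8.77 CPM) or old WT (53.2 to 99.8 and 21.0 to 58.0 CPM). Their part in the results was not tested. Sphk2, the gene named as knocked out, had 8 to 23 counts in old KO, 1 to 35 in old WT and 88 to 1684 in young WT libraries, above background in none of the 6 old ones, so its counts do not check the KO label.

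Myc is on chromosome 15 (61985391 to 61990374, GRCm38, plus strand; ENSMUSG00000022346). It had 1295, 91 and 5163 counts in old KO, 284, 19 and 256 in old WT and 18959, 4182 and 11503 in young WT libraries. In CPM these were 96.2, 8.06 and 294 in old KO, 55.5, 6.04 and 74.2 in old WT and 256, 149 and 371 in young WT. All 3 old WT libraries lay below all 3 young WT libraries, while old KO library 3 lay within the young range and old KO library 2 at the level of the lowest old WT library. Myc was above background in 2 old KO, 2 old WT and 3 young WT libraries, and it was the only member above background in more than 1 old WT library.

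Mycn, the paralog best known from the nervous system and also used by stem cells (chromosome 12, 12936093 to 12941914, minus strand; ENSMUSG00000037169), had 83.2, 3.81 and 153 CPM in old KO, 7.23, 14.9 and 23.8 CPM in old WT and 21.9, 119 and 6.22 CPM in young WT. The ranges of all 3 groups overlapped. None of the old WT libraries held Mycn above background, against 2 of old KO and 3 of young WT.

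Mycl, the third paralog (chromosome 4, 122995652 to 123002485, plus strand; ENSMUSG00000028654), was at background throughout, with 19, 15 and 40 counts in old KO, 45, 25 and 32 in old WT and 8, 2 and 3 in young WT libraries. Those counts were between 0.453 and 1.79 times the background of their library. By CPM the groups stood apart, at 1.33 to 2.28 in old KO, 7.95 to 9.28 in old WT and 0.0712 to 0.108 in young WT, in the order of the background itself, which on the CPM scale was 0.316 to 0.646 CPM per kb in old KO, 1.72 to 3.02 in old WT and 0.0159 to 0.0459 in young WT.

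Max, the partner of all the others (chromosome 12, 76937269 to 76962201, minus strand; ENSMUSG00000059436), had 2307, 39 and 36 counts in old KO, 73, 24 and 38 in old WT and 3554, 4106 and 639 in young WT libraries. As CPM this was 171, 3.46 and 2.05 in old KO, 14.3, 7.63 and 11.0 in old WT and 48.0, 146 and 20.6 in young WT. Only old KO library 1 among the 6 old libraries was above background, where its level passed that of every young WT library. The old WT libraries all lay below the young WT libraries.

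**Figure D1:**
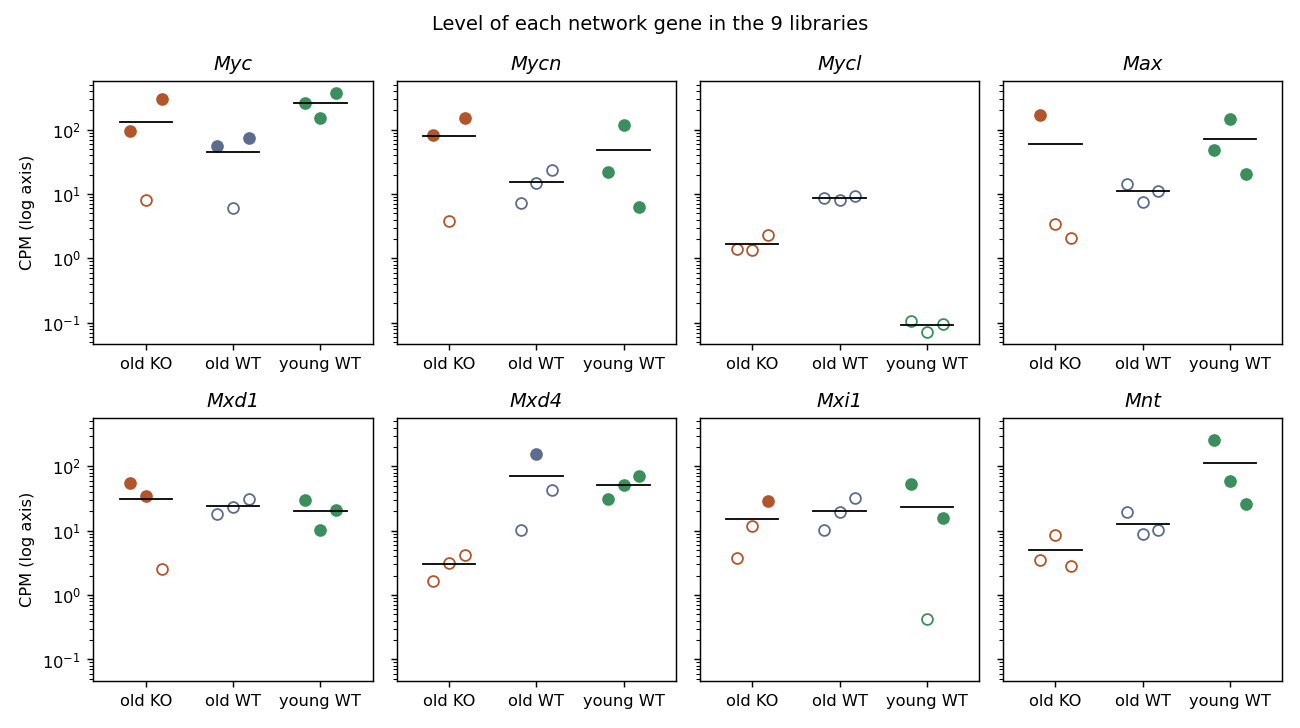
CPM (log axis) of the 8 genes in 3 old KO, 3 old WT and 3 young WT libraries, with filled points above background, open points not, and a bar at the mean. Myc lay between 6.04 and 74.2 CPM in old WT, below 149 to 371 CPM in young WT, while Mycl was open in all 9 libraries.

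Mnt is an antagonist found in many cell types that opposes Myc there. It is on chromosome 11 (74830920 to 74845725, plus strand; ENSMUSG00000000282) and had 48, 96 and 49 counts in old KO, 100, 28 and 35 in old WT and 18959, 1685 and 795 in young WT libraries. The count of young WT library 1 equals that of Myc in the same library, 18959, while the other 8 libraries differ between the 2 genes. In CPM, Mnt was at 3.57, 8.51 and 2.79 in old KO, 19.6, 8.90 and 10.2 in old WT and 256, 60.0 and 25.6 in young WT. Every young WT library held it above background, against none of the 6 old libraries.

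Mxd4, an antagonist linked to quiescence and differentiation (chromosome 5, 34173883 to 34187720, minus strand; ENSMUSG00000037235), had 22, 36 and 73 counts in old KO, 53, 487 and 150 in old WT and 2336, 1463 and 2184 in young WT libraries. By CPM the old KO libraries, at 1.63, 3.19 and 4.16, lay below all old WT libraries, at 10.4, 155 and 43.5, and below all young WT libraries, at 31.6, 52.1 and 70.4. Old WT library 2 alone among the old libraries was above background, at 10.6 times it.

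Mxd1, first described as Mad1 and induced when blood cells differentiate (chromosome 6, 86647042 to 86669161, minus strand; ENSMUSG00000001156), had 55.0, 34.5 and 2.56 CPM in old KO, 18.2, 23.5 and 30.7 CPM in old WT and 30.0, 10.2 and 21.0 CPM in young WT libraries, and all ranges overlapped. The old WT counts of 93, 74 and 106 were 1.33 to 1.93 times background, whereas old KO libraries 1 and 2 and all young WT libraries were above it.

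Mxi1, also called Mad2 (chromosome 19, 53310518 to 53375810, plus strand; ENSMUSG00000025025), varied widely within young WT. Its counts were 50, 133 and 515 in old KO, 53, 61 and 110 in old WT and 3966, 12 and 494 in young WT libraries. As CPM it had 3.72, 11.8 and 29.4 in old KO, 10.4, 19.4 and 31.9 in old WT and 53.6, 0.427 and 15.9 in young WT, so that all ranges overlapped. Only old KO library 3 and young WT libraries 1 and 3 were above background.

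**Figure D2:**
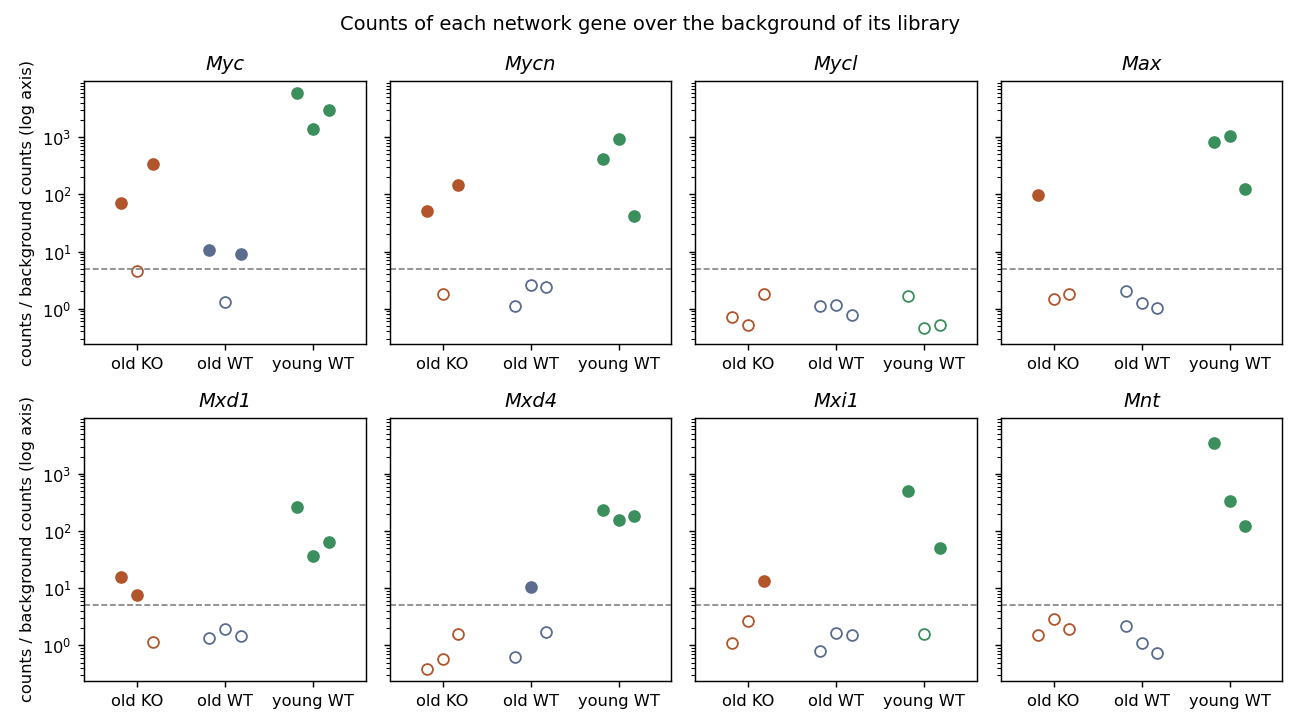
Counts of each gene divided by the counts its library's background gives over its exons (log axis), with the 5-fold limit dashed and points above background filled. Of the 8 genes, 4, 1 and 3 were above background in old KO libraries 1, 2 and 3, 1 in each old WT library and 7, 6 and 7 in young WT libraries 1, 2 and 3.

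No gene of the 8 was above background in all 3 old KO libraries or in all 3 old WT libraries, whereas 6 were so in young WT. This limit rises with the background. Per kb, that was 0.316 to 0.646 CPM in old KO, 1.72 to 3.02 in old WT and 0.0159 to 0.0459 in young WT. A gene at an equal CPM could thus pass the limit in young WT alone. Replicates of a group varied widely. Among members with a mean of at least 10 CPM, the highest library was a median of 36.3 times the lowest in old KO (5 members), 3.06 times in old WT (7 members) and 7.09 times in young WT (7 members). Over all genes of that level the medians were 15.9 in old KO (5689 genes), 2.64 in old WT (11634 genes) and 9.45 in young WT (7267 genes), so a wide range between replicates was common to genes at large. In bulk samples such as these, fewer cells that use a gene and less RNA per cell cannot be told apart.

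Old WT was set against young WT to describe libraries that differ in age. They also differ in depth and background, so an effect of age cannot be told apart from these. Of the 8 genes 6 were called lower, 1 higher and 1 not called, where called means a Benjamini-Hochberg adjusted p under 0.05 in edgeR's quasi-likelihood test with TMM factors over 32582 genes. Over all of these 37% were called, 18.4% lower and 18.6% higher. Of 5873 genes that every young WT library held above background, a choice that itself favours lower values in the other group, 80% were called lower and 0.0851% higher. With total counts in place of TMM 2 of the 8 were called, 1 lower and 1 higher, where 3.43% of all genes were called lower and 68.5% higher. Relative to total counts, TMM moved the fold changes by a median of -3.92 log2 units.

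Myc had 45.3 ± 35.2 CPM in old WT and 259 ± 111 CPM in young WT (SD, n = 3 each), a log2 fold change of -6.74 ± 1.62 (SE; edgeR adjusted p = 0.0111). With total counts it was -2.49 and not called (adjusted p = 0.0904). Max fell by 6.54 ± 1.79 on the log2 scale (adjusted p = 0.0170 in edgeR), with 11.0 ± 3.32 CPM in old WT and 71.6 ± 66.0 CPM in young WT (SD, n = 3 each), and with total counts was at -2.68 (adjusted p = 0.123). Mnt had 12.9 ± 5.82 CPM in old WT and 114 ± 124 CPM in young WT, a log2 fold change of -7.42 ± 1.53 (SE; edgeR adjusted p = 0.0071), and it was also called lower with total counts (-3.12, adjusted p = 0.0317). By CPM, Myc, Max and Mnt were the 3 members with all old WT libraries below all young WT libraries, where 5.87% of all tested genes were so. Mycl was the 1 member apart in the other direction, where 65% were so.

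Mycn (-5.51 ± 1.65, adjusted p = 0.0230), Mxi1 (-4.64 ± 1.71, adjusted p = 0.0455) and Mxd1 (-3.97 ± 1.37, adjusted p = 0.0368) were called lower in edgeR's test with TMM factors. With total counts they were at -1.66, -0.16 and 0.26 and not called, so that the direction of Mxd1 turned. Mxd4 was not called at -3.37 ± 1.33 (SE; edgeR adjusted p = 0.0565), with 0.46 by total counts, and was at -5.30 without old WT library 2. Mycl was called higher (2.41 ± 0.82, edgeR adjusted p = 0.0353; 6.47 with total counts, adjusted p = 0.000687), but its counts were at background in all 9 libraries.

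Myc and Mnt were called lower in all 9 fits that left out 1 library, with Mnt at -5.44 without young WT library 1, where it had its highest level, and at -8.07 without old WT library 1. Without old WT library 1, 2 or 3 no other member was called, with Mycn at -5.29, -5.80 and -5.71, Max at -6.97, -6.54 and -6.42, Mxd1 at -3.96, -4.23 and -4.01, and Mxi1 at -4.47, -4.92 and -4.88. Further calls were lost for Mycn without young WT library 2 (-4.47), for Mxd1 and Mxi1 without young WT library 1 (-3.29 and -2.74) and for Mxi1 without old KO library 2 (-4.80). Some values were larger when a library was left out, as for Mycn at -6.14 without young WT library 3 and for Mxi1 at -5.36 without young WT library 2. Mycl was called only without young WT library 1 (2.81) and lay between 2.00 and 2.50 in the other 8 fits. After subtraction of the background 0 of the 7 members tested were called by edgeR (0 at an unadjusted p under 0.05), with Mnt at -4.61 and Myc at -2.23. In that fit 0.139% of all 8629 genes were called, and 1761 of them had an unadjusted p under 0.05.

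Old KO was set against old WT to describe libraries that differ in the Sphk2 label at old age. They also differ in depth and background, and the WT strain is not given, so a genotype effect cannot be told apart from these. None of the 8 genes was called in edgeR's test with TMM factors, where 0.457% of all genes were called, all of them higher. Total counts called none either (0.00614% of all genes). The fit after background removal called none (0.162% of its genes). There, 1 member had an unadjusted p under 0.05, beside 1679 of 8629 genes. At an unadjusted p under 0.05 in edgeR with TMM there were 3, Myc, Mycn and Max, beside 3850 of all 32582 genes. The limma-voom fit called 0. DESeq2, which called 4.11% of its genes higher and 0.312% lower, called 4: Myc (3.50), Mycn (4.22) and Max (3.86) higher and Mxd4 (-3.09) lower in old KO.

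In edgeR, Mycn averaged 79.9 ± 74.5 CPM in old KO against 15.3 ± 8.28 CPM in old WT (SD over 3 libraries each), a log2 fold change of 4.67 ± 1.58 (SE; adjusted p = 0.222). Myc was at 133 ± 147 CPM in old KO and 45.3 ± 35.2 CPM in old WT, a log2 fold change of 3.96 ± 1.42 (SE; edgeR adjusted p = 0.244). Both rested on old KO libraries 1 and 3, since library 2 lay at 3.81 and 8.06 CPM, and without old KO library 3 Myc was at 2.13 and Mycn at 3.37. The log2 fold change of Max, 4.18 ± 1.61 (SE; edgeR adjusted p = 0.283), came from old KO library 1, and without it the value was -0.06. With total counts Mycn was at 2.36, Myc at 1.53 and Max at 2.41, and none was called. Relative to total counts, TMM moved the fold changes of this comparison by a median of 1.90 log2 units.

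Mxd4 went the other way, with 3.00 ± 1.27 CPM in old KO against 69.6 ± 75.7 CPM in old WT (SD over 3 libraries each) and a log2 fold change of -2.65 ± 1.30 (SE; edgeR adjusted p = 0.455). Without old WT library 2, the single old library above background, it was -0.78, and with total counts -4.55. Mxd1 (2.06), Mxi1 (1.80), Mnt (0.35) and Mycl (-0.34) had adjusted p-values of at least 0.656 in edgeR. With total counts Mxi1 and Mnt were at -0.48 and -1.40, so that their direction turned with the scaling. By CPM, Mycl, Mxd4 and Mnt had all old KO libraries below all old WT libraries, as had 48.8% of all tested genes.

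**Figure D3:**
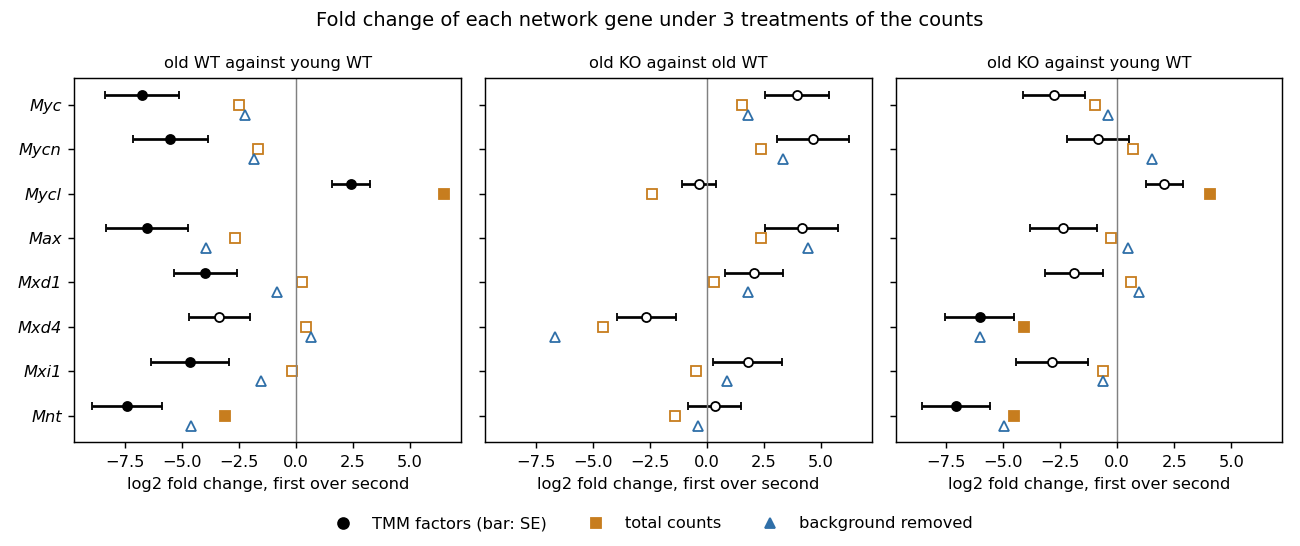
Log2 fold change of each gene in the 3 comparisons with TMM factors (circles, bar = SE, n = 3 each), with total counts (squares) and after background removal (triangles, not fitted for Mycl), filled where the adjusted p was under 0.05. Mnt is filled with both scalings where either old group is set against young WT, at -7.42 and -3.12 for old WT and -7.06 and -4.52 for old KO, and no point is filled for old KO against old WT.

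Old KO against young WT sets the 2 outer groups side by side, and it shares its young WT libraries with the first comparison and its old KO libraries with the second. Called were 2 of the 8 genes, both antagonists and both lower, where 12.8% of all genes were called, 5.84% lower and 6.91% higher. Of the 5873 genes chosen for being above background in every young WT library, 25.9% were called lower and 0.017% higher. Mnt had 4.96 ± 3.10 CPM in old KO and 114 ± 124 CPM in young WT (SD, n = 3 each), a log2 fold change of -7.06 ± 1.50 (SE; edgeR adjusted p = 0.0299). Mxd4 had 3.00 ± 1.27 CPM in old KO and 51.3 ± 19.4 CPM in young WT, a log2 fold change of -6.02 ± 1.51 (SE; edgeR adjusted p = 0.0337).

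These 2 calls were also made with total counts (-4.52, adjusted p = 0.0135, for Mnt and -4.09, adjusted p = 0.0179, for Mxd4), where 3.92% of all genes were called lower and 52.7% higher. Mnt and Mxd4 were the only members whose old KO libraries all lay below all young WT libraries by CPM, as did 4.06% of all tested genes, and Mycl lay above them, as did 53.5%. Without old KO library 1, 2 or 3 edgeR called none of its genes in this comparison, and Mnt was at -6.98, -7.54 and -7.07 and Mxd4 at -5.74, -5.94 and -6.82. Mxd4 was also not called without old WT library 3 (-6.07). Mnt was called without young WT library 1, where it had its highest level, but at -5.05. After background removal Mnt was at -4.97 and Mxd4 at -6.01 and neither was called by edgeR, in a fit that called 0.0464% of its genes. There, 2 members had an unadjusted p under 0.05, beside 970 of 8629 genes.

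The activators and Max were not called here. Myc was at -2.78 ± 1.34 (SE; edgeR adjusted p = 0.130), Max at -2.36 ± 1.48 (adjusted p = 0.220) and Mycn at -0.84 ± 1.37 (adjusted p = 0.628). Mycn lay at 0.71 with total counts and at 0.23 without young WT library 2, so its direction turned in both. With total counts Myc was at -0.96 and Max at -0.27. Relative to total counts, TMM moved the fold changes of this comparison by a median of -2.01 log2 units. Without old KO library 1 Max was at -6.72 (edgeR adjusted p = 0.0815), and without old KO library 3 Myc was at -4.72 (edgeR adjusted p = 0.0863). Mxi1 (-2.84; -0.90 without young WT library 1 and -4.49 without old KO library 3) and Mxd1 (-1.91; 0.59 with total counts) were not called either, nor was Mycl (2.07, edgeR adjusted p = 0.0815; called with total counts at 4.09, adjusted p = 0.0090), again on counts at background.

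A ratio within a library does not depend on the scaling between libraries, so Myc was set against the summed counts of its 4 antagonists, with 0.5 counts added to each of the 2 sums. The log2 ratio was 0.59, -2.84 and 2.92 in old KO, -0.07, -5.06 and -0.65 in old WT and -0.54, 0.28 and 1.48 in young WT libraries. Old KO libraries ran from below to above the young WT range, and the ranges of all groups overlapped. The mean was 0.22 ± 2.90 in old KO, -1.93 ± 2.73 in old WT and 0.41 ± 1.01 in young WT (SD, n = 3 each). Old WT minus young WT was -2.33 (exact permutation p = 0.2, 2-sided), old KO minus old WT was 2.15 (exact permutation p = 0.4) and old KO minus young WT was -0.18 (exact permutation p = 1), where the smallest p that 3 against 3 allows is 0.1. The old WT ratios rest largely on counts at background, since in old WT libraries 1 and 3 none of the 4 antagonists was above it and in old WT library 2 Mxd4 was and Myc was not. After background removal the differences were -1.82 (exact permutation p = 0.9), 1.86 (exact permutation p = 0.6) and 0.04 (exact permutation p = 1) in the same order. Old WT library 2 set the first 2 values, which were -0.77 and 0.58 without it. The last value turned to 1.35 without old KO library 2 and to 0.35 without young WT library 3, and old KO minus old WT was 0.80 without old KO library 3 and 3.68 without old KO library 2.

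**Figure D4:**
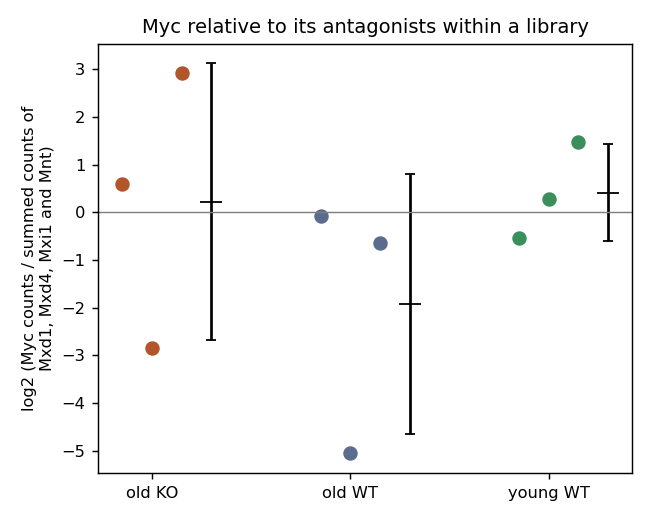
Log2 ratio of Myc counts to the summed counts of Mxd1, Mxd4, Mxi1 and Mnt in each library, with the mean and SD of the 3 libraries of a group. Old WT library 2 lies at -5.06 and the other 2 old WT libraries at -0.07 and -0.65, within the young WT range of -0.54 to 1.48 or just below it.

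Compared between genes per kb of exon, Myc had the highest mean in all groups, with 48.9 ± 53.9 CPM per kb in old KO, 16.7 ± 13.0 in old WT and 95.2 ± 40.8 in young WT (SD, n = 3 each). In young WT it was followed by Mnt (24.6 ± 26.9), Max (19.9 ± 18.4), Mycn (14.9 ± 18.6), Mxd4 (6.05 ± 2.29), Mxi1 (3.42 ± 4.01) and Mxd1 (2.89 ± 1.41 CPM per kb), with Mycl last at 0.0228 ± 0.0047. Each neighbour in this order overlapped the next except Mxd1 and Mycl. In old KO the order was Myc, Mycn (24.2 ± 22.6), Max (16.4 ± 27.1), Mxd1 (4.34 ± 3.74), Mxi1 (2.19 ± 1.92), Mnt (1.07 ± 0.67), Mycl (0.414 ± 0.130) and Mxd4 (0.353 ± 0.150 CPM per kb), where the only neighbours apart were Mnt and Mycl. In old WT the 7 genes after Myc lay between 8.20 ± 8.92 for Mxd4 and 2.15 ± 0.17 CPM per kb for Mycl, and all neighbours overlapped. Mnt, Mycl and Mxd4 were above background in no old KO library. In old WT only Myc, in 2 libraries, and Mxd4, in 1, reached 5 times the background of their library. That background was 1.72 to 3.02 CPM per kb. Max (47.6) passed Myc (35.4) in old KO library 1, and Mxd1 (4.87) passed Myc (2.97) in old KO library 2. In old WT library 2 Mxd4 (18.3) passed Myc (2.22).

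Per kb, Myc made up 58.0%, 66.6% and 69.8% of the reads of the 3 Myc paralogs in old KO, 82.4%, 25.5% and 74.2% in old WT and 93.4%, 60.2% and 98.6% in young WT libraries. Mycn took 41.4%, 26.0% and 29.8% in old KO, 8.85%, 52.0% and 19.6% in old WT and 6.58%, 39.8% and 1.36% in young WT. The largest Mycl share, 22.6%, was in old WT library 2, where all 3 paralogs were at background (1.14 to 2.64 times it), so its shares are shares of background reads. Mycn and Mycl were at background in the other old WT libraries too. In old KO library 2 none of the 3 paralogs was above background either, with Myc, Mycn and Mycl at 4.60, 1.79 and 0.51 times it.

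Among 8938 genes with a mean of at least 10 CPM, those with a pattern most like Myc over the 9 libraries were Nhp2, Brpf1 and Hspbp1 (Pearson r of log2 CPM 0.969, 0.951 and 0.940, n = 9 libraries). For Max they were Tom1l1, Cd93 and Tm9sf3 (r = 0.983, 0.980 and 0.962). These r values are descriptions over libraries that differ in depth and background. Tom1l1 and Cd93 had 281 and 442 CPM in old KO library 1 and under 10 CPM in old KO libraries 2 and 3, as Max did. Between members, r over the same libraries ran from -0.61 for Max and Mxi1 to 0.50 for Mxd4 and Mnt, with 0.46 for Myc and Mycn and 0.35 for Myc and Max.

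Genes around the network were described by lists. All 30 genes of a list of targets that Myc is known to activate were above background in the 3 young WT libraries, 15 in all 3 old KO libraries and 2 in all 3 old WT libraries. In old WT against young WT 29 of the 30 were called lower and Nme1 was not (edgeR adjusted p = 0.0828), beside 18.4% of all genes and the 80% of genes chosen as above background in young WT. Without old WT library 1, 2 or 3, 18, 18 and 13 were called. The median log2 fold change of the list was -5.93 with TMM, against 1.37 over all tested genes, and -1.90 with total counts, against 5.32. Total counts called 7 of the 30 lower, and background removal left 1. After background removal the list's median was -2.12, against -2.01 over all genes of that fit. Odc1, which starts polyamine synthesis, fell by 10.11 ± 1.26 on the log2 scale (SE; edgeR adjusted p = 0.0039), with 23.2 ± 7.89 CPM in old WT and 1439 ± 350 CPM in young WT (SD, n = 3 each). Next came Hspd1, a mitochondrial chaperone (-7.76), Ldha, which makes lactate (-7.74), and Srm, which makes spermidine (-7.47).

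Of the 30 activated targets 1 was called higher in old KO against old WT, Odc1, at 7.67 ± 1.14 (SE; edgeR adjusted p = 0.0297; 15 of the 30 at an unadjusted p under 0.05), with 500, 1141 and 1631 CPM in old KO libraries against 23.3, 15.3 and 31.0 CPM in old WT libraries. With total counts it was at 5.54 and not called (adjusted p = 0.109), and DESeq2 called 13 of the 30 higher. The call of Odc1 was lost without old KO library 3 (6.82), old WT library 1, 2 or 3 (7.81, 7.58 and 7.69) or young WT library 1, 2 or 3 (7.71 each). After background removal Odc1 was the 1 called gene of the lists, at -6.03 in old WT against young WT and 6.20 in old KO against old WT. The 15 targets at an unadjusted p under 0.05 with TMM stood beside 3850 of all 32582 tested genes. The median of the list was 3.27, against -0.04 over all tested genes. After background removal it was 2.01, against 0.94 over all genes of that fit. Against young WT, old KO had 6 called lower, the largest changes being Dkc1 (-6.69), Gnl3 (-6.46), Rrs1 (-5.50) and Cad (-4.93), beside 5.84% of all genes and 25.9% of those chosen as above background in young WT, and the list's median was -2.52 against 1.20 over all tested genes. Total counts called 3 of them, and without old KO library 1, 2 or 3 none was called. There were 3, 2 and 2 calls without old WT library 1, 2 or 3. After background removal the list's median against young WT was 0.15, against -0.34 over all genes of that fit. Dkc1, Gnl3 and Rrs1 serve ribosome production, Cad pyrimidine synthesis. Gnl3 had 1.04, 0.709 and 7.64 CPM in old KO libraries and 86.2, 113 and 53.2 CPM in young WT libraries, and these groups did not overlap.

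Of 5 genes that Myc is known to repress, 3 were called lower in old WT against young WT, where 18.4% of all genes were: Ndrg1 (-5.33), Gadd45a (-5.06) and Cdkn1a (-4.96; edgeR adjusted p between 0.0136 and 0.0250). All 3 were above background in every young WT library, and of all genes chosen so 80% were called lower. With total counts these were at -1.13, -0.79 and -1.21 and not called, while 2 others, Cdkn2b and Ndrg2, were called higher, as were 68.5% of all genes. Neither of these was above background in 2 libraries of any group. Without old WT library 1 or 3 none of the 5 was called, and 2 were without old WT library 2. For old KO against old WT edgeR with TMM called 0 and DESeq2 called 2 higher. At an unadjusted p under 0.05 edgeR had 4, beside 3850 of all 32582 genes. For old KO against young WT edgeR with TMM called 0, as did DESeq2. At an unadjusted p under 0.05 edgeR had 1 there, beside 13312 of all 32582 genes. Total counts called Cdkn2b and Ndrg2 higher in this comparison, as 52.7% of all genes. Gadd45a, a stress-induced growth arrest gene, had 405, 277 and 304 CPM in old KO, 34.2, 35.3 and 33.1 CPM in old WT and 122, 37.2 and 21.1 CPM in young WT libraries, above background in all 9. Its old KO values lay above all others, with 5.17 ± 1.30 against old WT (SE; edgeR adjusted p = 0.0954) and 0.11 ± 1.09 against young WT (adjusted p = 0.940; 2.45 with total counts).

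Among 22 cofactors, turnover factors and corepressors, 7 were called lower in old WT against young WT, where 18.4% of all genes were. In old KO against old WT edgeR called 0 (2 at an unadjusted p under 0.05; 1 higher by DESeq2). In old KO against young WT it called 0 (8 at an unadjusted p under 0.05; 7 lower by DESeq2). Over all 32582 genes, 3850 and 13312 had an unadjusted p under 0.05 in these 2 comparisons. In young WT 12 of the 22 were above background in all 3 libraries, and of all genes chosen so 80% were called lower in old WT. The 7 calls in old WT against young WT became 2, 4 and 2 without old WT library 1, 2 or 3. In old KO against young WT 2 were called lower without young WT library 2 and 1 without young WT library 3. Old WT against young WT had its largest changes in Kat5, an acetyltransferase (-6.90), and Hdac1, a deacetylase (-6.60 ± 1.73 SE, edgeR adjusted p = 0.0148). Wdr5, a Myc cofactor (-6.43), and Kat2a, another acetyltransferase (-6.13), followed. Kat5 was high in young WT library 1 alone (58.9 CPM), since libraries 2 and 3 of that group held 1.32 and 0.483 CPM. Its old WT libraries reached 1.17, 6.68 and 2.61 CPM, so the ranges overlapped. Those of Kat2a overlapped too, with young WT library 1 at 3.63 CPM and old WT library 3 at 38.3 CPM. Hdac1 had 3.94, 5.67 and 100.1 CPM in old KO, 22.3, 16.9 and 31.9 CPM in old WT and 224, 44.9 and 70.2 CPM in young WT, so that old WT lay below young WT and old KO overlapped both. With total counts none of the 22 was called lower (3.43% of all genes), and Trrap, Usp28 and Fbxw7 were called higher (68.5% of all genes). Trrap was not above background in 2 libraries of any group. The list's median in old WT against young WT was -3.53 with TMM and 0.23 with total counts.

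In the rest of the extended network, 3 of 5 genes were called lower in old WT against young WT, Mlx (-6.14), Mxd3 (-5.04) and Mlxip (-4.04), and the same 3 in old KO against young WT (-5.45, -6.55 and -4.80; edgeR adjusted p between 0.0148 and 0.0495 over both), beside 18.4% and 5.84% of all genes. In young WT Mlx, Mlxip and Mga, which was not called, were above background in all 3 libraries, and Mxd3 in 1. Of all genes above background in every young WT library 80% and 25.9% were called lower. The same young WT libraries serve in both comparisons. None was called in old KO against old WT by edgeR (0 at an unadjusted p under 0.05, beside 3850 of 32582 genes) or DESeq2. Without old WT library 1, 2 or 3 none was called in either comparison with young WT. There were 2 calls without young WT library 1 and 1 call without young WT library 2 in each of them, and none in old KO against young WT without old KO library 1, 2 or 3. With total counts Mlx and Mxd3 were called lower in old KO against young WT alone. Mxd3 rested on young WT library 2, with 50.2 CPM there and 0.243 and 0.322 CPM in the other 2 young WT libraries. Mlx had 2.30, 3.28 and 0.285 CPM in old KO, 2.93, 4.77 and 3.48 CPM in old WT and 12.1, 1.78 and 34.4 CPM in young WT, so all ranges overlapped.

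**Figure D5:**
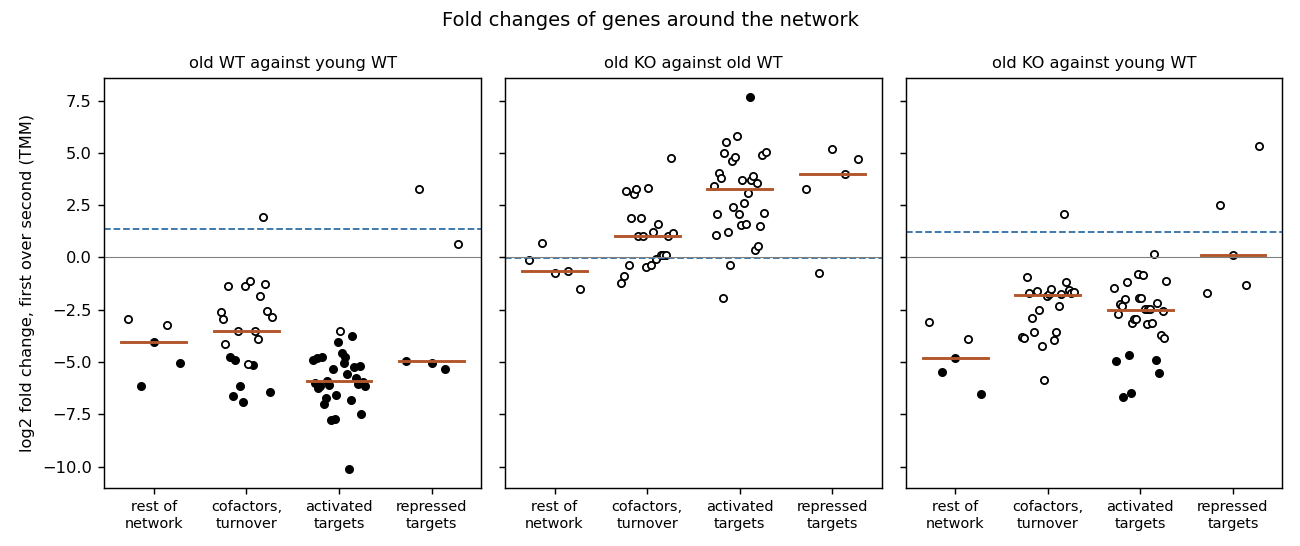
Log2 fold change (TMM factors) of each gene of 4 lists in the 3 comparisons, filled where the edgeR adjusted p was under 0.05, with the list's median as a solid bar and the median of all tested genes dashed. In old WT against young WT 29 of 30 activated targets are filled below 0, and in old KO against old WT the filled point at 7.67 is Odc1.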

How the data were processed

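The deposited data were raw counts of reads for each gene in 1 table, a column for each library. Per the submitters' processing notes, the tools were HTSeq 0.10.0, STAR 2.6.1d, Trim Galore 0.6.2 and edgeR 3.24.3, with genome mm10, and per the labels' protocols 13 cycles of amplification and paired reads of 150 bp. How strand was treated, and with which annotation, is not given in the sources used here, so reads of antisense genes cannot be told apart. Mxd4 shares 514 exon bases with the antisense Gm42846 and Mxi1 194 with Gm10197 on the opposite strand, both at 0 counts in all libraries. In library sizes and tests the 5 lines without a gene were left out (outside genes 6.51% to 87.7% of a library's counts, ambiguous 0.619% to 5.48%). Of the identifiers 52403 had a symbol, with coordinates and exon lengths from GENCODE M21 (GRCm38).

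Counts of all 9 libraries were fitted with edgeR 4.0.16 in R 4.3.3 (filterByExpr, TMM factors, quasi-likelihood F test, 1 mean per group, Benjamini-Hochberg adjustment over 32582 genes), and SE comes from the F statistic. All 8 members passed the filter. Alternatives were other scalings, filters, DESeq2 1.42.0, limma-voom (limma 3.58.1), the compared libraries alone, a replicate block, background subtraction and leaving out each library. Changes of 4-fold, 16-fold and 64-fold were made in 67, 67 and 66 genes of simulated counts of old WT against young WT. At a low dispersion of 0.1 the fit recovered 88.1%, 100% and 100% of them. At the dispersion fitted to these libraries it recovered 0% at each size, among 30857 genes. So few changed genes make the adjusted limit harder to pass than in the data, where 37% of genes were called. The recovered share therefore does not carry over to the calls made here. A gene that was not called may still have changed. Named besides the members were the 3 genes most like Myc and Max and, from each list, up to 4 called genes with the largest change or else the 2 most abundant. The text prints a part of these, and Nme1, Trrap, Usp28, Fbxw7, Cdkn2b and Ndrg2 were added after their values were seen. Some list genes are not reported here and were left out of their lists. The members and lists were chosen with earlier results of these data known, and the share called among genes above background in young WT was added after seeing the data. PCR reads without molecular identifiers are not independent molecules.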

Additional observations from a re-analysis of the deposited data

How the results depend on the processing

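The number of members called in old WT against young WT was 7 and became 2 with total counts, 3 with a stricter filter (at least 10 CPM in 3 libraries, Mycl left out), 4 with the replicate block and 0 after background removal. It became 8 by DESeq2, 6 with no filter and 2 to 6 when 1 library was left out. In old KO against old WT it was 0 and became 4 by DESeq2. For old KO against young WT it was 2 and became 3 with total counts, 3 by DESeq2, 0 with the replicate block and 0 after background removal, and 0 to 2 without 1 library. Replicate numbers are not given as pairs, and same-numbered libraries did not deviate together (r of deviations from group means between -0.03 and 0.02 over tested genes). Whether such libraries share a batch or a source was not tested.

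Over all genes, 12056 were called in old WT against young WT, 23424 with total counts, 7072 with the block and 3695 to 11412 without 1 library. In old KO against old WT there were 149, 2 with total counts, with upper-quartile or RLE factors and with the block, 271 with no filter, 290 with the stricter filter, 375 by limma-voom, 2185 by DESeq2 and 0 to 185 without 1 library. For old KO against young WT there were 4155, 18448 with total counts, 7999 by DESeq2, 0 with the block and 0 to 4482 without 1 library. Background removal left 12, 14 and 4 in these comparisons.

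Directions turned as follows. With total counts Mxd1 (0.26) and Mxd4 (0.46) turned in old WT against young WT, Mxi1 (-0.48) and Mnt (-1.40) in old KO against old WT, and Mycn (0.71) and Mxd1 (0.59) in old KO against young WT. After background removal, which left Mycl out, Mxd4 (0.65) turned in old WT against young WT, Mnt (-0.36) in old KO against old WT, and Mycn (1.51), Max (0.49) and Mxd1 (0.98) in old KO against young WT, and with a stricter filter Mnt (-0.24) against old WT and Mycn (0.27) against young WT. Mnt was also at -0.023 with RLE factors and -0.026 by DESeq2 in old KO against old WT. Leaving out 1 library put Max between -0.063 and 4.77 in old KO against old WT and Mycn between -2.24 and 0.23 in old KO against young WT. The ratio of Myc to its antagonists in old KO against young WT became 0.40 with Mxd4 and Mxi1 alone and 0.036 after background removal, and lay between -1.53 and 1.35 without 1 library. For the fold changes of single members, 103, 139 and 130 alternative values kept direction and call (in the order of comparisons used above), 42, 0 and 11 lost the call and 2, 4 and 2 gained it. The causes were not tested. Old WT libraries had 3145167 to 5115003 counts in genes and a background of 1.72 to 3.02 CPM per kb. In them, members other than Myc and, in 1 library, Mxd4 did not reach 5 times background.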
